A study of Mus musculus with 18 samples.

Results

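The genes examined here encode 10 RNA-binding proteins of the stress granule core: *G3bp1*, *G3bp2*, *Caprin1*, *Tia1*, *Tial1*, *Atxn2*, *Atxn2l*, *Ddx3x*, *Ddx6* and *Fmr1*. They were chosen by symbol from what the proteins are known to do, with earlier results of these data known. Each symbol was matched to its Ensembl identifier, so they are 10 of the 22524 genes in the count files. Liver RNA came from 10 A226Y mice and 8 WT mice, all female C57BL/6 animals aged 15 months, with 1 library per mouse. The A226Y mice were heterozygous for a knock-in allele of *Rps2*, a protein of the small ribosomal subunit, in which exon 3 carries the A226Y change and a transcriptional stop between loxP sites blocks exon 1 until Cre removes it. Cre came from the ubiquitous CMV-Cre transgene. Removal was partial in every mutant animal, so their livers were mosaics of cells with the mutant allele active and cells with it still silenced. The WT mice carried Cre without the knock-in. The mutant protein and a lower amount of *Rps2* mRNA occur in the same animals and cannot be told apart in this comparison.

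Stress granules are cytoplasmic condensates of mRNA and protein that form when translation initiation stalls, most often after phosphorylation of eIF2α. G3BP1 and its paralogue G3BP2 are the scaffolds that condense with the released mRNA, and CAPRIN1 binds them. TIA1 and its paralogue TIAL1 bind AU-rich and U-rich RNA, ataxin-2 and its paralogue ATXN2L bind poly(A)-binding protein, DDX3X and DDX6 are DEAD-box RNA helicases, and FMRP, the product of *Fmr1*, binds polysomal mRNA and represses translation. Granules assemble mainly from protein and mRNA that are already present, so mRNA levels of the core genes report supply and do not count granules. The question here was whether the mRNA supply of the core differed between livers with the error-prone ribosomal protein and WT livers.

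Total counts per library ranged from 23850565 to 62126131, and none of the 73 pairs of libraries of the same genotype agreed within sampling noise. In the A226Y mice *Rps2* stood at 46.9 to 83.0 CPM (reads of a gene relative to the library total, scaled with TMM factors), below all WT mice at 104 to 143 CPM (log2 fold change −0.73, adjusted p = 0.000772, edgeR quasi-likelihood test), so no library went against its label. Summed hepatocyte markers (*Alb*, *Ttr* and 5 others) made up 86911 to 152068 CPM in WT and 76056 to 142482 CPM in A226Y livers. Among the marker genes of all liver cell types examined, *Tat* and *Cps1* of hepatocytes were higher in A226Y mice, and *Clec4f* of Kupffer cells and *Col1a1* and *Col3a1* of stellate cells were lower. These are 2 of 7 hepatocyte, 1 of 9 Kupffer cell and 2 of 8 stellate cell markers; none was called for sinusoidal endothelium, cholangiocytes, T cells, B and plasma cells, neutrophils, erythroid or dividing cells, and none of the markers was at 0 in all mice. The summed Kupffer cell markers ran from 489 to 900 CPM in WT and from 314 to 1416 CPM in A226Y livers, and the stellate cell markers from 413 to 635 and from 499 to 596 CPM. The part of cell composition in the values that follow was not tested. In bulk tissue, a change in the share of a cell type and a change in RNA per cell cannot be told apart.

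All 10 genes passed the filter on low counts, and none had fewer than 156 reads in any mouse. *Ddx3x* and *Fmr1* were higher in A226Y liver at an adjusted p under 0.05, and none of the 10 was lower. The count of 2 became 1 with a correction for transcript length and 0 with 4 surrogate variables in the model, and 4 without WT mouse 6 or A226Y mouse 23, *Tia1* and *Atxn2* being the additional genes. Over all tested genes, 1910 were called in the main fit, 1559 with the length correction and 50 with surrogate variables. Without WT mouse 6 that number was 2504, and without A226Y mouse 23 it was 1795. Across all 13353 genes tested, 7.27% were called higher and 7.03% lower, beside the 2 of 10 here. With all genes split into 5 equal bins by the length of their exons, 16.1% were called higher in the bin of the longest, which holds 6 of the 10, and 8.50% in the next bin, which holds 3, so the count is near the share for genes of such lengths. Without adjustment, 5 of the 10 had p under 0.05 in the upward direction (*Ddx3x*, *Fmr1*, *Atxn2*, *Tia1* and *Ddx6*) against 14.9% of all genes. With the length correction the unadjusted quasi-likelihood p was 0.00141 for *Ddx3x* and 0.0102 for *Fmr1*. It was 0.0793 for *Tia1*, 0.144 for *Ddx6* and 0.240 for *Atxn2*. The log2 fold changes of the 10 genes ran from −0.05 to 0.32, with 8 above 0 and a median of 0.13, beside a median of −0.0044 over all genes tested. No gene of the 10 had groups that did not overlap, and 0.637% of all genes did.

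**Figure D1:**
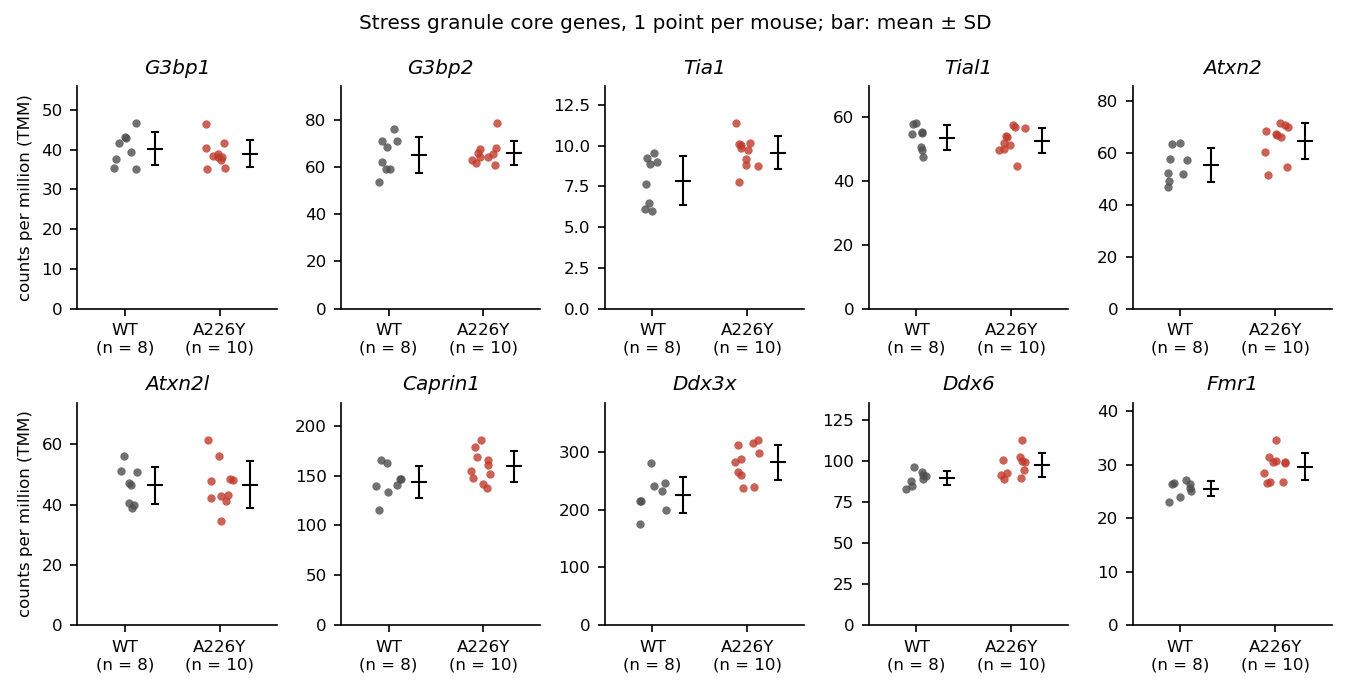
Level of each stress granule core gene in each mouse (vertical axis, CPM after TMM scaling, starting at 0), with WT mice in grey (n = 8) and A226Y mice in red (n = 10); horizontal bars are means and whiskers SD. *Ddx3x* and *Fmr1* sit higher in the A226Y mice with some overlap, whereas the groups of *G3bp1*, *G3bp2*, *Tial1* and *Atxn2l* cover much the same range.

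Per kilobase of the longest coding transcript, which allows levels to be compared between genes, *Ddx3x* was the most abundant of the 10 in WT liver at 48.1 ± 6.80 CPM per kb (SD, n = 8). *Caprin1* came next at 23.3 ± 2.58, and *Tia1* was last at 1.75 ± 0.33 CPM per kb. *G3bp2* (15.4 ± 1.83), *Ddx6* (14.7 ± 0.72), *Atxn2* (12.4 ± 1.43), *Tial1* (12.1 ± 0.88) and *Atxn2l* (11.5 ± 1.56) lay between them, and the WT ranges of neighbours in this order overlapped. *G3bp1* (6.02 ± 0.61) and *Fmr1* (5.79 ± 0.32) overlapped each other and lay below that group. With the union of all exons as the length, *Ddx3x* and *Caprin1* stayed at the top and *Tia1* at the bottom, but *Atxn2* moved from 5 to 8 in the order (3.53 ± 0.41 CPM per kb), since its annotated exons add up to 15689 bases against 4472 in its longest coding transcript.

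The promoters of 4 genes are shown for context, as the bases upstream of the annotated transcription start, written 5′ to 3′ on the strand of the gene (RefSeq windows, GRCm38.p6). *Ddx3x* and *Fmr1* are the genes called, and *Tia1* and *Tial1* are paralogues whose ratio differed between genotypes. The windows are chrX:13280772-13280969 (plus strand) for *Ddx3x*, chrX:68678291-68678540 (plus) for *Fmr1*, chr6:86403969-86404218 (plus) for *Tia1* and chr7:128461718-128461923 (minus) for *Tial1*. Capitals mark any of 7 motifs searched on both strands.
Ddx3x: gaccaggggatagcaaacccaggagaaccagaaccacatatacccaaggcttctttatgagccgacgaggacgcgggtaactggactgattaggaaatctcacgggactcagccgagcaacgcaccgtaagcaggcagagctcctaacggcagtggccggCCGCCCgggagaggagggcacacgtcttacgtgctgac
Fmr1: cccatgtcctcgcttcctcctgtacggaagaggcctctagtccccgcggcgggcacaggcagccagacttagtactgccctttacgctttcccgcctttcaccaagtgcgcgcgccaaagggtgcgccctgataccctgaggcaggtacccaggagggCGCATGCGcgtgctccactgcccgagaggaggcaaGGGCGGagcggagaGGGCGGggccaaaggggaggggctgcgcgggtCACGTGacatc
Tia1: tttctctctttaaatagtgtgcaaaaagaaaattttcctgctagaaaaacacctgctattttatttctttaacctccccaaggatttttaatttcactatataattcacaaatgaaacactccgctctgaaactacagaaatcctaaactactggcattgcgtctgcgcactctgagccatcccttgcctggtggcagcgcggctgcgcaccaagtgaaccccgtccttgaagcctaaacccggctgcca
Tial1: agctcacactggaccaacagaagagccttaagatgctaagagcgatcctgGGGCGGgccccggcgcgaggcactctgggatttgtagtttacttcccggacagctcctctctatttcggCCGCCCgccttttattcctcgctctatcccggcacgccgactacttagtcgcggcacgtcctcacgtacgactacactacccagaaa
The motifs were CGCATGCG (NRF1 core), GGGCGG (GC box), CCGGAA (ETS core), CACGTG (E-box), CCAAT, TGACGTCA (CRE) and TATAAA. RefSeq windows were found for 9 of the 10 genes (15 windows, of 250 bases before each start), and *Ddx6* had no entry. The NRF1 core was in windows of *Fmr1* and *G3bp2* and in 1.55% of all 32851 windows, and the GC box in 10 of the 15 windows of core genes (8 of the 9 genes) and in 32.7% of all windows. The E-box was in windows of *Atxn2* and *Fmr1* (6.02% of all). The CRE was in no window of the 10 genes (1.55% of all), and none of the 7 motifs was in the *Tia1* window. The full window of 250 bases held 8 CpG dinucleotides for *Tia1* and 22 and 19 for the 2 windows of *Tial1*, against a median of 6 over all windows. A match of letters is a description and not a binding site.

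*Ddx3x* (chromosome X, 13280970 to 13294052, plus strand of GRCm38) encodes a helicase that helps unwind structured 5′ leaders during initiation. Its level in WT mice was 175 CPM at the lowest, 224 at the median and 280 at the highest, and in A226Y mice 238, 285 and 322 CPM. All 10 A226Y mice exceeded the WT mean and 6 exceeded every WT mouse. The log2 fold change was 0.32 ± 0.087 (SE), a level 25.1% higher, with an adjusted p of 0.0183, and an exact permutation test on this gene alone gave p = 0.00197 (two-sided). *Ddx3x* was called in each of the 18 fits that left out a single mouse and lost its call with 4 surrogate variables (0.16, adjusted p = 0.256). Of its near-identical relatives, *D1Pas1* had 0 counts in every library and *Ddx3y* at most 1. How reads matching more than 1 gene were counted is unsure, so these counts do not show whether *Ddx3x* lost reads to them.

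*Ddx6* (chromosome 9, 44604892 to 44640731, plus strand) encodes a helicase of P-bodies and of mRNA decapping that also enters stress granules. Its CPM was 82.6, 89.8 and 95.9 (lowest, median, highest) in WT and 89.1, 96.7 and 113 in A226Y mice. The groups overlapped: of the A226Y mice, 9 exceeded the WT mean and 5 every WT mouse. The difference did not pass the adjusted threshold (log2 fold change 0.12 ± 0.052 SE, adjusted p = 0.123, exact permutation p = 0.0123). It was called only with scaling to library size alone, among the alternatives tried (log2 fold change 0.16, adjusted p = 0.0350).

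*Fmr1* (chromosome X, 68678541 to 68717963, plus strand) was one of the steadiest of the 10 genes among WT mice, with a coefficient of variation of 5.56%. WT levels were 22.99, 26.0 and 27.1 CPM (lowest, median, highest), and A226Y levels 26.5, 30.4 and 34.7 CPM. Every A226Y mouse exceeded the WT mean, and 7 of 10 exceeded every WT mouse, A226Y mouse 23 being the highest. *Fmr1* was 16.3% higher in A226Y liver (log2 fold change 0.22 ± 0.055 SE, adjusted p = 0.0140, exact permutation p = 0.000937), and it too was called in each fit without a single mouse. The call was lost with a length offset (0.15, adjusted p = 0.0685) and with 4 surrogate variables (0.21, adjusted p = 0.179), and with a GC offset the log2 fold change was 0.14 (adjusted p = 0.0494). Counting error of the 677 to 962 *Fmr1* reads per WT mouse was 3.60%, or 42.0% of the variance of *Fmr1* among WT mice. *Ddx3x* and *Fmr1* both lie on chromosome X, where 10.1% of 397 tested genes were called higher and 4.03% lower.

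Neither scaffold gene passed the test. *G3bp1* (chromosome 11, 55469685 to 55504838, plus strand) had 35.3, 40.6 and 46.7 CPM (lowest, median, highest) in WT and 35.2, 38.3 and 46.6 CPM in A226Y mice, so the ranges nearly coincided. Its log2 fold change was −0.05 ± 0.063 (SE, adjusted p = 0.667). *G3bp2* (chromosome 5, 92052146 to 92083719, minus strand) had 53.6, 65.4 and 76.2 CPM in WT and 61.0, 64.9 and 78.7 CPM in A226Y mice, with a log2 fold change of 0.02 ± 0.067 (SE, adjusted p = 0.876). A226Y mouse 15 stood alone at the upper end of its group. The sign of *G3bp2* was not stable: it turned with a correction for transcript length or for GC content and without A226Y mouse 15 or WT mouse 24. *Caprin1* (chromosome 2, 103762941 to 103797649, minus strand), the binding partner, had 116, 143 and 166 CPM in WT and 137, 158 and 186 CPM in A226Y mice. Of the 10 A226Y mice, 8 exceeded the WT mean and 3 every WT mouse, and the difference did not pass the threshold (log2 fold change 0.15 ± 0.074 SE, adjusted p = 0.190, exact permutation p = 0.0535).

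*Tia1* (chromosome 6, 86404219 to 86433405, plus strand), the least abundant of the 10, had 6.01, 8.26 and 9.54 CPM (lowest, median, highest) in WT and 7.75, 9.78 and 11.4 CPM in A226Y mice. The WT mice ran down to 6.01 CPM in WT mouse 24, below every A226Y mouse, and 6 of 10 A226Y mice exceeded every WT mouse. The log2 fold change was 0.28 ± 0.10 (SE), with an adjusted p of 0.0656 and an exact permutation p of 0.0102, so the adjusted value fell just outside the threshold. It fell inside when WT mouse 6, WT mouse 33 or A226Y mouse 23 was left out, the lowest adjusted p being 0.0341, and with library size alone (0.0393) or DESeq2 (0.0450). It moved away with the length offset (log2 fold change 0.16, adjusted p = 0.236), the GC offset (0.22, 0.155) and 4 surrogate variables (0.07, 0.826), and reached up to 0.135 when a mouse was left out. *Tial1* (chromosome 7, 128439777 to 128461717, minus strand) had 47.6, 54.9 and 58.2 CPM in WT and 44.7, 52.9 and 57.6 CPM in A226Y mice. Its log2 fold change was −0.03 ± 0.056 (SE, adjusted p = 0.795), with no A226Y mouse above every WT mouse. The sign of *Tial1* turned with scaling to library size alone (0.015).

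*Atxn2* (chromosome 5, 121711337 to 121816493, plus strand), which binds poly(A)-binding protein, had 47.0, 54.8 and 64.0 CPM (lowest, median, highest) in WT and 51.5, 67.1 and 71.6 CPM in A226Y mice. In A226Y liver, 7 of 10 mice exceeded every WT mouse, while mice 23 and 29 did not reach the WT mean. With a log2 fold change of 0.23 ± 0.077 (SE), the adjusted p was 0.0526 (exact permutation p = 0.0132). The adjusted p was under 0.05 without WT mouse 6, WT mouse 24, A226Y mouse 23 or A226Y mouse 29, and with library size alone (0.0283), DESeq2 (0.0361), limma-voom (0.0462) or a filter of 10 counts in every mouse (0.0482). It was 0.451 with the length offset (log2 fold change 0.09), 0.176 with the GC offset (0.16) and 0.585 with 4 surrogate variables (0.11), and up to 0.107 when a mouse was left out. *Sh2b3*, whose exons overlap those of *Atxn2* by 99 bases on the opposite strand, had a log2 fold change of −0.15 (adjusted p = 0.206). *Atxn2l* (chromosome 7, 126491708 to 126503437, minus strand) had 38.7, 46.9 and 56.1 CPM in WT and 34.6, 45.4 and 61.6 CPM in A226Y mice. It was the most variable of the 10 genes among A226Y mice, with a coefficient of variation of 16.7%, and its log2 fold change was 0.01 ± 0.098 (SE, adjusted p = 0.977).

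A ratio of paralogues within a library does not depend on how the libraries were scaled, and it compares the mRNAs of proteins of like function. The log2 ratio of *Tia1* to *Tial1* was −2.79 ± 0.29 (SD, n = 8) in WT and −2.46 ± 0.17 (n = 10) in A226Y mice. All 10 A226Y mice exceeded the WT mean and 5 every WT mouse. The difference was 0.33 ± 0.116 (SE), with p = 0.00887 by an exact permutation test and an adjusted p of 0.0266 over the 3 pairs. The adjusted p stayed under 0.05 in 14 of the 18 tests that left out a mouse and was 0.0579 without WT mouse 13, 0.0522 without WT mouse 14, 0.0609 without WT mouse 24 and 0.0501 without A226Y mouse 15. The longest coding transcripts of these paralogues have nearly the same length (4477 and 4451 bases), while the unions of their exons do not (15750 and 6903 bases). The log2 ratio of *Atxn2* to *Atxn2l* was 0.26 ± 0.15 in WT and 0.49 ± 0.27 in A226Y mice, with 8 of 10 A226Y mice above every WT mouse and A226Y mouse 29 below every WT mouse at −0.18. Its difference of 0.23 ± 0.10 (SE, exact permutation p = 0.0494) did not pass adjustment (0.0741). Without A226Y mouse 29 the difference was 0.30 with an exact permutation p of 0.00037. That was the only 1 of the 18 tests leaving out a mouse in which this pair had an adjusted p under 0.05. In the other 17 the adjusted p reached up to 0.133. The ratio of *G3bp1* to *G3bp2* differed by −0.07 ± 0.064 (SE, exact permutation p = 0.29).

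**Figure D2:**
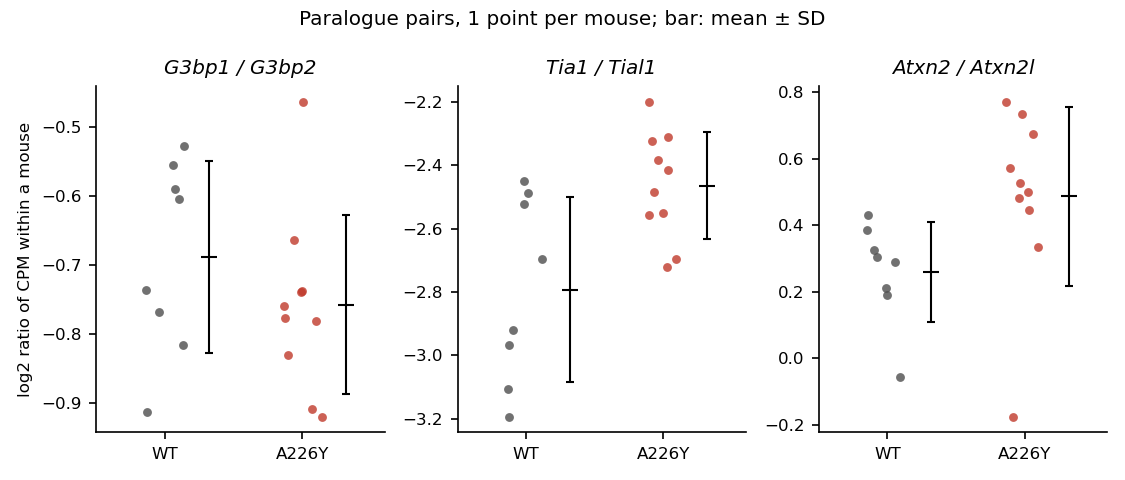
Log2 ratio of the CPM of paralogues in each mouse (vertical axis, no unit; the axes do not start at 0) for *G3bp1*/*G3bp2*, *Tia1*/*Tial1* and *Atxn2*/*Atxn2l*, with WT mice in grey (n = 8), A226Y mice in red (n = 10), means and SD. The A226Y points of *Tia1*/*Tial1* fill the upper part of the WT range and beyond, and A226Y mouse 29 lies apart from the other A226Y mice in *Atxn2*/*Atxn2l*.

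The fold changes of all genes rose with transcript length. When the tested genes were ordered by the length of their exons and split into 5 bins of equal size, the median log2 fold change rose from −0.08 in the bin of the shortest genes to 0.09 in that of the longest, and the share called higher from 3.12% to 16.1%. Of the 10 core genes, 6 (*G3bp2*, *Tia1*, *Atxn2*, *Caprin1*, *Ddx6* and *Fmr1*) are in the bin of the longest genes, 3 in the next and *Atxn2l* in the middle one, as the plot of fold change against length shows. The slope of log2 CPM on length, taken per mouse, was −0.08 to 0.0070 in WT and −0.0020 to 0.08 per doubling of length in A226Y livers. With an offset per library for length, the medians of the bins lay within 0.0071 of 0, and 5.78% of all genes were called higher and 5.89% lower.

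**Figure D3:**
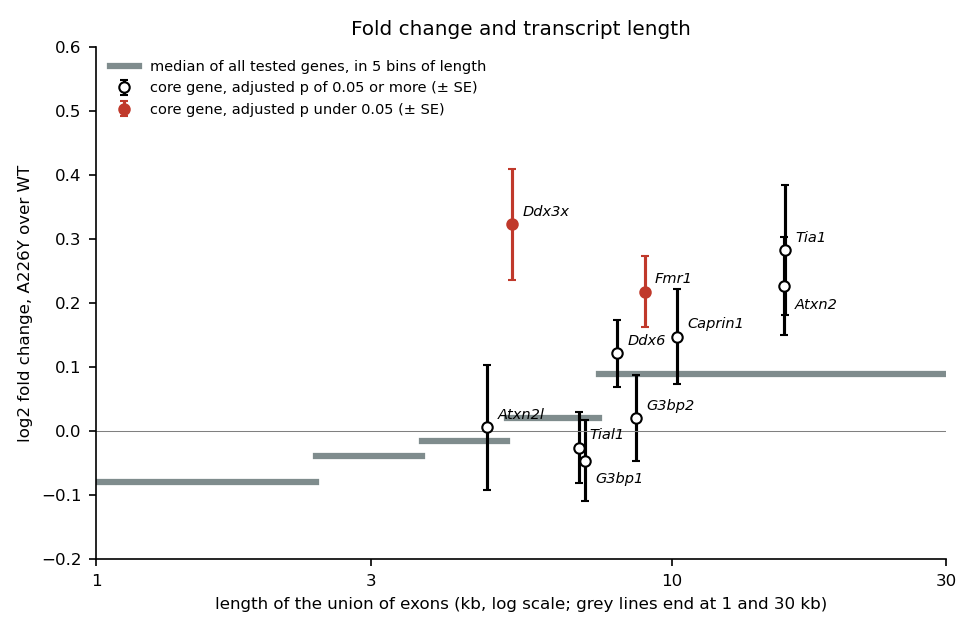
Log2 fold change (A226Y over WT, vertical axis) of the 10 core genes against the length of the union of their exons (horizontal axis, kb, log scale), with SE whiskers and filled red points for an adjusted p under 0.05; grey lines are the medians of all tested genes in the 5 bins of length. *Ddx3x* lies far above the line of its bin, and *Caprin1* and *Ddx6* close to theirs.

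Under that offset *Ddx3x* alone of the 10 was called, at a log2 fold change of 0.32 (adjusted p = 0.0223), the same value as without it. Without A226Y mouse 29, 2 were called under the offset. *Fmr1* fell from 0.22 to 0.15 (adjusted p = 0.0685). *Tia1* stood at 0.16, *Atxn2* at 0.09, and *Ddx6* and *Caprin1* at 0.07, and the median of the 10 was 0.07 in place of 0.13. The calls differed with the measure of length. With the longest transcript of each gene, both *Ddx3x* (0.30, adjusted p = 0.0254) and *Fmr1* (0.21, adjusted p = 0.0226) were called, *Tia1* stood at 0.27, close to its uncorrected value, and *Atxn2* at 0.13, below its uncorrected value of 0.23. The difference of *Tia1* and *Tial1* in log2 fold change was 0.22 with the union of exons and 0.31 with the longest transcript, and that of *Atxn2* and *Atxn2l* was 0.08 and 0.13. With 4 surrogate variables in the model no core gene was called: *Fmr1* stood at 0.21 (adjusted p = 0.179) and *Ddx3x* at 0.16 (adjusted p = 0.256). GC content also moved values: 8 of the 10 core genes lie at or below a GC percentile of 17.8 among tested genes, and with a GC offset *Ddx3x* stood at 0.25 (adjusted p = 0.0424), *Fmr1* at 0.14, *Caprin1* at 0.09 and *Ddx6* at 0.07. The part of length and GC content in the differences was not tested beyond these fits.

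**Figure D4:**
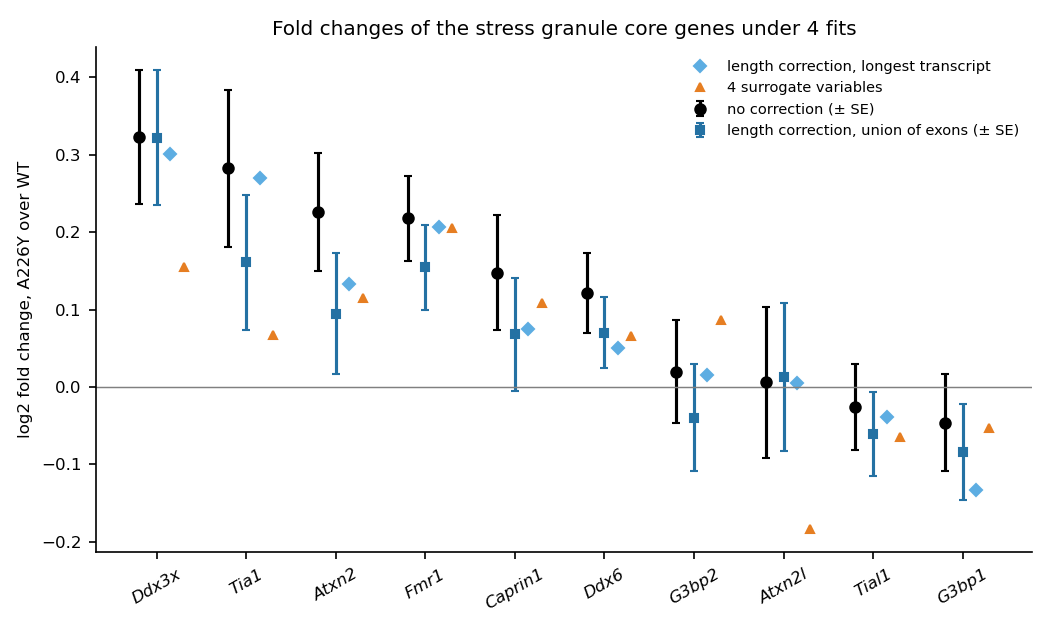
Log2 fold change (A226Y over WT, vertical axis) of each core gene without correction (black, ± SE), with a length offset from the union of exons (dark blue, ± SE) or the longest transcript (light blue), and with 4 surrogate variables (orange). *Ddx3x* stayed near its value under both length corrections and fell to 0.16 with surrogate variables, where no gene was called. *Fmr1* fell to 0.15 under the union of exons, *Atxn2* moved towards 0 in all 3 corrected fits, and *Tia1* did so under the union of exons and the surrogate variables.

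Mice differed in how many core genes ran high. The number of core genes above their WT mean was 3 to 9 in both genotypes, but it reached 7 or more in 9 of 10 A226Y mice and in 2 of 8 WT mice. A226Y mouse 23, the most deeply sequenced library, was the exception, with 3. The WT mice themselves set that mean, and no such count was made for other genes of like length. The median slope of log2 CPM per doubling of length was 0.025 in A226Y and −0.025 in WT mice. WT mouse 24 had the lowest value of all 18 mice in 5 of the 10 genes. After centring within genotype, the core genes did not move as a block over the 18 mice. *Ddx6* and *Tia1* followed the mean of the other core genes (Pearson r = 0.74 and 0.73) and *Caprin1* less so (0.42), while *Fmr1* (−0.12) and *G3bp2* (−0.15) did not. The genes elsewhere in the table whose centred levels were closest to the mean of the core were *Edem3* (r = 0.89), *Hyal1* (0.87), *Epm2aip1* (0.85), *Tram2* (0.85) and *Sec16a* (0.83). They are the highest of 11931 genes compared over 18 mice, so their r is high by selection. These correlations are descriptions: the values of a mouse come from the same library and share its depth and its cell composition. The part of either in the correlations was not tested.

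Genes that work around the core were read from 6 lists. Of 13 binding partners of the core proteins, such as *Usp10*, *Ubap2l* and *Fxr1*, 2 were called higher and none lower (15.4% and 0%, against 7.27% and 7.03% of all tested genes), with a median log2 fold change of 0.07. These are long genes (median 7631 bases of exons), and in the bin of the longest genes 16.1% were called higher. *Prrc2b* stood at 0.22 (adjusted p = 0.0226) and *Prrc2c* at 0.26 (adjusted p = 0.0338), and neither was called with the length offset. No binding partner was called without WT mouse 13 or 14, and 1 was called without WT mouse 24 or A226Y mouse 7, 11, 22 or 32. Of 17 P-body and decapping genes, only *Patl1*, a decapping activator, was called (0.19, adjusted p = 0.0438), which is 5.88% of the list and below the background share. *Patl1* lost its call in 12 of the 18 fits that left out a mouse (without WT mouse 4, 13, 14, 21 or 33 or A226Y mouse 3, 5, 7, 11, 18, 22 or 32). Without WT mouse 6 the list had 2 genes called higher and 2 lower, and without WT mouse 24 or 28 it had 1 in each direction. Without A226Y mouse 32 it had 0 called higher and 1 lower.

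The complex that stalls on granule mRNA, of eIF4F, eIF3, eIF2α and poly(A)-binding proteins, had 2 genes called higher and 2 lower among 23, with a median of 0.0028. That is 8.70% in each direction, near the 7.27% and 7.03% of all tested genes. The split was 4 higher and 1 lower with the length or the GC offset, 4 and 2 with DESeq2, 3 and 1 with library size alone and 0 and 0 with surrogate variables. The cap-binding protein gene *Eif4e* was higher, at 17.1 to 22.7 CPM in WT and 20.5 to 25.3 CPM in A226Y mice (log2 fold change 0.28, adjusted p = 0.00607), as was the scaffold gene *Eif4g3* (0.33, adjusted p = 0.00498). The helicase gene *Eif4a2* was lower, at 125 to 210 CPM in WT and 97.4 to 162 CPM in A226Y mice (−0.51, adjusted p = 0.00332). The fourth, *Eif4b*, named here after its values were seen, was lower too (−0.34, adjusted p = 0.0455), but it was not called with the length offset (adjusted p = 0.0665) or in 13 of the 18 fits that left out a mouse, the exceptions being those without WT mouse 33 or A226Y mouse 3, 5, 22 or 29. *Eif4e*, *Eif4g3* and *Eif4a2* were also called with the length offset. None of the 13 eIF3 genes of the list was called, nor was *Eif2s1*, the gene of eIF2α.

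Among 44 other RNA-binding proteins found in granules, 8 were called higher and 1 lower, or 18.2% and 2.27% of the list, with a median of 0.08. Over all tested genes the shares were 7.27% and 7.03%, but the list is of long genes (median 6788 bases of exons), and in the bins of the 2 longest groups of genes 8.50% and 16.1% were called higher. The splicing and mRNA localization factor gene *Mbnl1* ranged from 82.2 to 94.2 CPM in WT and from 91.8 to 119 CPM in A226Y mice (log2 fold change 0.31, adjusted p = 0.00192). *Syncrip*, an hnRNP gene, lay at 36.1 to 41.5 CPM in WT and 42.1 to 51.5 CPM in A226Y mice, without overlap (0.27, adjusted p = 0.00253). *Pum2*, a repressor that binds 3′ UTRs, lay at 57.7 to 69.0 and 69.6 to 82.6 CPM, also without overlap (0.24, adjusted p = 0.00481). All 3 were called with the length offset, under which the list had 5 genes called higher and 1 lower. Without A226Y mouse 29 and without an offset, 14 genes of the list were called, while the calls over all tested genes went from 1910 to 2560. With library size alone 13 were called higher and none lower, beside 1399 higher and 660 lower over all tested genes. With DESeq2 the list had 11 higher and 2 lower, beside 1247 and 1171 over all tested genes. The gene called lower was *Zc3hav1*, an antiviral RNA-binding protein, named here after its values were seen (−0.27, adjusted p = 0.0273), and it lost its call with library size alone and without WT mouse 14 or 21 or A226Y mouse 7 or 11.

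Of the 14 genes for eIF2 kinases, the eIF2α phosphatase and eIF2B, 1 was called higher, the phosphatase catalytic subunit gene *Ppp1cb* (0.24, adjusted p = 0.0125), which was not called with the length offset. The share of 7.14% is near the 7.27% of all tested genes called higher. None of the 4 kinases was called. Of 16 granule clearance genes, 14 were tested and 1 was called higher, again 7.14%: *Hspb1*, a small heat shock protein, at 1.154 to 8.03 CPM in WT and 6.92 to 17.7 CPM in A226Y mice (log2 fold change 0.93, adjusted p = 0.0316). This call was lost without A226Y mouse 7 or 32 or WT mouse 13, 14 or 24, each of which left no gene of the list called. Without WT mouse 4 or 6 or A226Y mouse 5, 2 genes of the list were called, 1 higher and 1 lower.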

How the data were processed

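For each of the 18 mice the authors deposited raw counts, as whole numbers by Ensembl identifier and without normalization. The submitters' processing notes name bcl2fastq, fastp, STAR, featureCounts, MultiQC and GRCm38, while the paper's methods name RSEM and an Ensembl annotation, so which counter made the files is unsure. Strand was not stated, so overlapping antisense genes cannot be told apart. Symbols, positions and lengths came from GENCODE M21 (GRCm38), which held 22214 of the 22524 identifiers.

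A gene entered the test when 50% or more of the mice of a genotype reached 10 counts, which left 13353 genes. They were compared with edgeR 4.0.16 (R 4.3.3): TMM scaling, quasi-likelihood fit, no covariates, Benjamini-Hochberg adjustment over all tested genes. A gene was called at an adjusted p under 0.05, and SE is the log2 fold change divided by the square root of F. Single genes were also compared by two-sided exact permutation of log2 CPM (prior count 2). Ratios were compared by the same test on the log2 ratio of CPM without a prior count. With all mice there are 43758 divisions, whose smallest possible p is 2.29e-05. Ratio tests that left out a mouse used the divisions of the remaining mice. Length and GC offsets were lowess curves per library (span 0.3, 3 iterations, pseudocount 0.5) over the 13300 genes with a known length. Alternatives used other scalings and filters, DESeq2 1.42.0, limma-voom 3.58.1, a robust fit, 4 surrogate variables from sva 3.50.0, and leaving out each mouse. The procedures were tested on simulated counts.

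The members and lists were chosen with earlier results of these data known. Named genes are the 10 core genes, *Rps2*, up to 3 called genes of each list with the smallest adjusted p, and the 5 genes most alike to the mean of the core. Cell type markers, genes that share reads or exons with a core gene, and examples of what a list holds are named besides, and *Eif4b* and *Zc3hav1* were named after their values were seen. The labels do not say whether mice share litters, so the p-values take the mice as independent, which could not be checked. Counting error made up 0.752% (*Ddx3x*, WT) to 42.0% (*Fmr1*, WT) of the variance of a core gene among mice. *Hspa1a* did not pass the filter, *Prmt1* was not matched, and the *Rps2*-loxP mice and protein measurements were not analysed here.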

Additional observations from a re-analysis of the deposited data

Results flagged for a closer look

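Of 26 groups of values examined (each core gene and each paralogue ratio in each genotype), 2 held a mouse whose gap to the nearest of the others, divided by the range of its group, was above Dixon's 95% critical value. Chance flags about 1 in 20 groups. The CPM of *G3bp2* in A226Y mouse 15 was 78.7, apart from the other 9 A226Y mice. The log2 ratio of *Atxn2* to *Atxn2l* in A226Y mouse 29 was −0.18, apart from the other 9. That mouse had the highest *Atxn2l* of all 18 mice (61.6 CPM) and the lowest *Tial1* (44.7 CPM).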

How the results depend on the processing

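The 1910 genes called fell to 50 with 4 surrogate variables and ranged from 1255 (without WT mouse 14) to 2560 (without A226Y mouse 29) when a mouse was left out. Scaling to library size alone called 2059, of which 67.9% were higher against 50.8% with TMM, and moved the median of all genes to 0.04. The 2 core genes called became 5 with library size alone, 4 with DESeq2, 3 with limma-voom or 10 counts in every mouse, 1 with the length offset and 0 with surrogate variables, and 2 to 4 without single mice; after length correction the 1 core gene became 2 with the longest transcript (1 to 2 without single mice). With surrogate variables, 0 genes were called among binding partners, P-body genes, the stalled initiation complex, eIF2 regulators and clearance genes, and 1 among other granule RNA-binding proteins. With the length offset, 0 binding partners and 0 eIF2 regulators were called. The P-body count of 1 became 2 (library size alone), 3 (DESeq2, 1 of them lower), 2 (GC offset, 1 of them lower) and 0 (no filter, limma-voom). The clearance count of 1 became 2 with upper-quartile scaling, DESeq2 or the GC offset, 1 higher and 1 lower each time. Leaving out a mouse gave 0 to 2 binding partners, 0 to 4 P-body genes, 3 to 5 initiation genes, 7 to 14 other RNA-binding proteins, 1 eIF2 regulator and 0 to 2 clearance genes. *Fmr1* was not called with the length offset (0.15) or with surrogate variables (0.21), and *Ddx3x* only lost its call with the latter (0.16). Signs turned for *G3bp2* (−0.040 with the length and −0.033 with the GC offset, −0.017 to 0.055 without single mice), *Tial1* (0.015 with library size alone) and *Atxn2l* (−0.18 with surrogate variables, −0.047 to 0.050 without single mice). Without single mice the ratio differences were 0.27 to 0.38 for *Tia1*/*Tial1*, −0.10 to −0.05 for *G3bp1*/*G3bp2* and 0.18 to 0.30 for *Atxn2*/*Atxn2l*, the last with p at 0.05 or more in 14 of 18 exact permutation tests. The cause of these shifts was not tested. No paired analysis was possible because no animal number is shared between the genotypes.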
